A study of Homo sapiens with 6 samples.

Results

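Long noncoding RNA genes that carry microRNAs or small nucleolar RNAs (snoRNAs), and a handful of well-known named long noncoding RNAs (lncRNAs), were followed in a human hepatic stellate cell line given IGFBP-7 protein. The members were all rows of the deposited table typed as lncRNA whose symbol is MIR followed by HG, SNHG followed by a number, or GAS5, MALAT1, NEAT1, H19, MEG3, MEG8, CARMN, DANCR, PVT1, EPB41L4A-DT, FTX, FENDRR or HOTAIR. This gave 102 of the 16569 genes: 67 microRNA host genes, 26 snoRNA host genes and 9 other named lncRNAs. The genes were sorted into these subgroups by symbol alone. The RefSeq entries used place a microRNA in 51 of 65 matched microRNA host genes and a snoRNA in 19 of 26 snoRNA host genes. Of the 9 other named lncRNAs, 3 carry a microRNA and 1 carries snoRNAs. NORAD, OIP5-AS1 and TUG1 were not analysed here, TUG1 because the table types it as protein coding. The cells were LX-2, an established hepatic stellate line. Stellate cells are liver pericytes that become matrix-producing myofibroblasts after injury. In all 6 samples the cells were wild type, were grown with 2% fetal bovine serum and went 18 h without it. For the next 24 h the cells of 3 libraries received 100 ng/mL IGFBP-7, a secreted protein that binds insulin-like growth factors, and those of the other 3 received phosphate-buffered saline (PBS). The study asks how IGFBP-7 alters stellate cells, and the comparison here asks which host transcripts differ between the PBS and IGFBP-7 libraries.

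A microRNA host gene is transcribed as a long precursor. Its hairpins are cut out by Drosha and Dicer, and the mature microRNA guides Argonaute to messenger RNAs that pair with its seed. A snoRNA host gene carries its snoRNAs in introns, from which they are released after splicing and guide chemical modification of ribosomal RNA (box C/D for methylation, box H/ACA for pseudouridylation). The spliced remainder of many snoRNA host genes is short-lived, being translated briefly and then degraded by nonsense-mediated decay. NEAT1 is the scaffold of paraspeckles, MALAT1 is a transcript of nuclear speckles, and MEG3 and MEG8 are imprinted transcripts expressed from the maternal chromosome. The libraries were made from poly(A) RNA, so the values count spliced or unspliced host transcripts. The mature microRNAs and snoRNAs themselves were not measured.

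The microRNAs carried by the host genes with the clearest differences are shown first, because the seed (bases 2 to 8, in capitals) names the family each host can supply. Sequences are from RefSeq and coordinates are those of GRCh38.p14, in which each lies within the span of its host gene. The first set belongs to host genes that were higher with IGFBP-7: CARMN carries miR-143-3p at chr5:149428978-149428998 and miR-145-5p at chr5:149430661-149430683 (plus strand), and the set goes on with MIR31HG, MIR34AHG, MIR210HG and MIR181A2HG.
hsa-miR-143-3p: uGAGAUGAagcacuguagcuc
hsa-miR-145-5p: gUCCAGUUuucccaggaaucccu
hsa-miR-31-5p: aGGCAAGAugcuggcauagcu
hsa-miR-34a-5p: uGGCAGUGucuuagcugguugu
hsa-miR-210-3p: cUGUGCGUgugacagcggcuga
hsa-miR-181a-5p: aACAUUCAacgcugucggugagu
The miR-31-5p sequence lies at chr9:21512158-21512178, miR-34a-5p at chr1:9151735-9151756 and miR-210-3p at chr11:568112-568133, all on the minus strand. The copy of miR-181a-5p in MIR181A2HG lies at chr9:124692480-124692502 on the plus strand. MIR181A1HG carries the same mature sequence at chr1:198859108-198859130.

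Clusters whose host genes were higher with IGFBP-7 are shown next, since 1 host transcript can carry several families. MIR17HG carries its cluster between miR-17-5p at chr13:91350618-91350640 and miR-92a-3p at chr13:91351361-91351382 (plus strand). MIR23AHG carries miR-23a-3p, miR-27a-3p and miR-24-3p, the first at chr19:13836595-13836615 (minus strand). MIR100HG carries miR-100-5p at chr11:122152275-122152296, a copy of let-7a-5p at chr11:122146568-122146589 and miR-125b-5p at chr11:122099809-122099830 (minus strand).
hsa-miR-17-5p: cAAAGUGCuuacagugcagguag
hsa-miR-20a-5p: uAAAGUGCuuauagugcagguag
hsa-miR-18a-5p: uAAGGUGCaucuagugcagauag
hsa-miR-19a-3p: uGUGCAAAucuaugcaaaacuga
hsa-miR-19b-3p: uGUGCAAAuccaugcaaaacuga
hsa-miR-92a-3p: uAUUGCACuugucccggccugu
hsa-miR-23a-3p: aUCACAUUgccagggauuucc
hsa-miR-27a-3p: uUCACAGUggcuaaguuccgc
hsa-miR-24-3p: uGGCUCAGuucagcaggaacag
hsa-miR-100-5p: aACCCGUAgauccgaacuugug
hsa-let-7a-5p: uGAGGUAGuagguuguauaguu
hsa-miR-125b-5p: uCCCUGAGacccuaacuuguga
Within the MIR17HG cluster miR-17-5p and miR-20a-5p have 1 seed and miR-19a-3p and miR-19b-3p another.

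The last set sets host genes that were lower with IGFBP-7 beside MIR497HG, which was higher. MIR222HG carries miR-221-3p at chrX:45746180-45746202 and miR-222-3p at chrX:45747036-45747056, MIR503HG carries miR-503-5p at chrX:134546371-134546393, and MIR137HG carries miR-137-3p at chr1:98046091-98046113. MIR497HG carries miR-497-5p at chr17:7017979-7017999 and miR-195-5p at chr17:7017667-7017687. All are on the minus strand.
hsa-miR-221-3p: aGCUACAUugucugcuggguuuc
hsa-miR-222-3p: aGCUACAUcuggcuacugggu
hsa-miR-137-3p: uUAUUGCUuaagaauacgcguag
hsa-miR-503-5p: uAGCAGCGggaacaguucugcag
hsa-miR-497-5p: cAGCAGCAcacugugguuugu
hsa-miR-195-5p: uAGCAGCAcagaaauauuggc
The seeds of miR-221-3p and miR-222-3p are identical. The seed of miR-503-5p shares 6 of 7 letters with that of miR-497-5p and miR-195-5p, which share all 7 with each other.

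The libraries held 40599380 to 43537923 recovered reads with PBS and 45242993 to 55479940 with IGFBP-7, where 2 reads are 1 sequenced fragment, and 3 fragments in 1 library correspond to 2.54 to 3.20 normalized counts. The members together took 0.448 to 0.479% of the normalized counts with PBS and 0.402 to 0.448% with IGFBP-7. Much of this share was NEAT1 and MALAT1, which took 0.221 to 0.246% with PBS and 0.116 to 0.154% with IGFBP-7. Of 11 stellate and fibroblast markers 9 were in the table, and their summed normalized count was 94850 to 100100 with PBS and 290000 to 318200 with IGFBP-7, led by COL1A1, with DES under a mean of 10. Hepatocyte markers summed to at most 10.3 in any library, with ALB, APOA1 and HNF4A all under a mean of 10. Of 3 epithelial markers, led by KRT7, the sum was 338 to 473 and 468 to 498, and of 4 endothelial markers, led by PECAM1, it was 121 to 124 and 147 to 156. Of 4 leukocyte and macrophage markers, led by CD68, it was 3216 to 3310 with PBS and 1484 to 1703 with IGFBP-7. Of these markers PTPRC and CD163 stayed under a mean of 10, while CD68 and CD14 did not. The part of these differences in the results below was not tested, and in bulk RNA fewer cells of a type and less RNA per cell cannot be told apart.

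More host genes were higher than lower with IGFBP-7. Of the 102 members, 69 reached a mean of 10 normalized counts over the 6 libraries and were tested by limma on log2(normalized count + 1), with the p-values adjusted over all 11872 tested genes and a threshold of 0.05. Of these 69, 32 (46.4%) were higher and 11 (15.9%) lower, and 26 did not pass. Over all tested genes 31.3% were higher and 29.2% lower. Over the 1926 tested lncRNA genes 16.9% were higher and 17.9% lower. The median log2 change was 0.25 for the 69 members and 0.02 for all tested genes. The labels do not say whether libraries came from separate cultures, so p-values measure only the spread between these 6 libraries.

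The subgroups were counted apart, with no test between them. Of 24 tested snoRNA host genes 14 were higher and 2 lower, with a median log2 change of 0.33. Of 37 tested microRNA host genes 13 were higher and 7 lower, with a median of 0.10. This median was 0.03 without PBS replicate 1, and under scaling to the library total it was -0.04, with 13 higher and 13 lower. Of 8 tested other lncRNAs 5 were higher and 2 lower, with a median of 0.26, or 0.17 without IGFBP-7 replicate 2. Values of the groups did not overlap in 49 of the 69 tested members. In 32 of 69 every IGFBP-7 library was above every PBS library, against 3909 of 11872 tested genes (32.9%). In 17 of 69 every IGFBP-7 library was below, against 3633 of 11872 (30.6%). Among microRNA hosts 14 of 37 lay above and 14 below, and among snoRNA hosts 14 of 24 above and 1 below. Among other lncRNAs 4 of 8 lay above and 2 below. Scaling each library to its total instead of the authors' size factors shifted the median log2 change of all genes by -0.14, gave 27 members higher and 17 lower, and over all tested genes 2435 higher and 4176 lower in place of 3721 and 3471. Directions of small changes are therefore relative to the authors' scaling, and no member called by either scaling changed its direction.

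**Figure D1:**
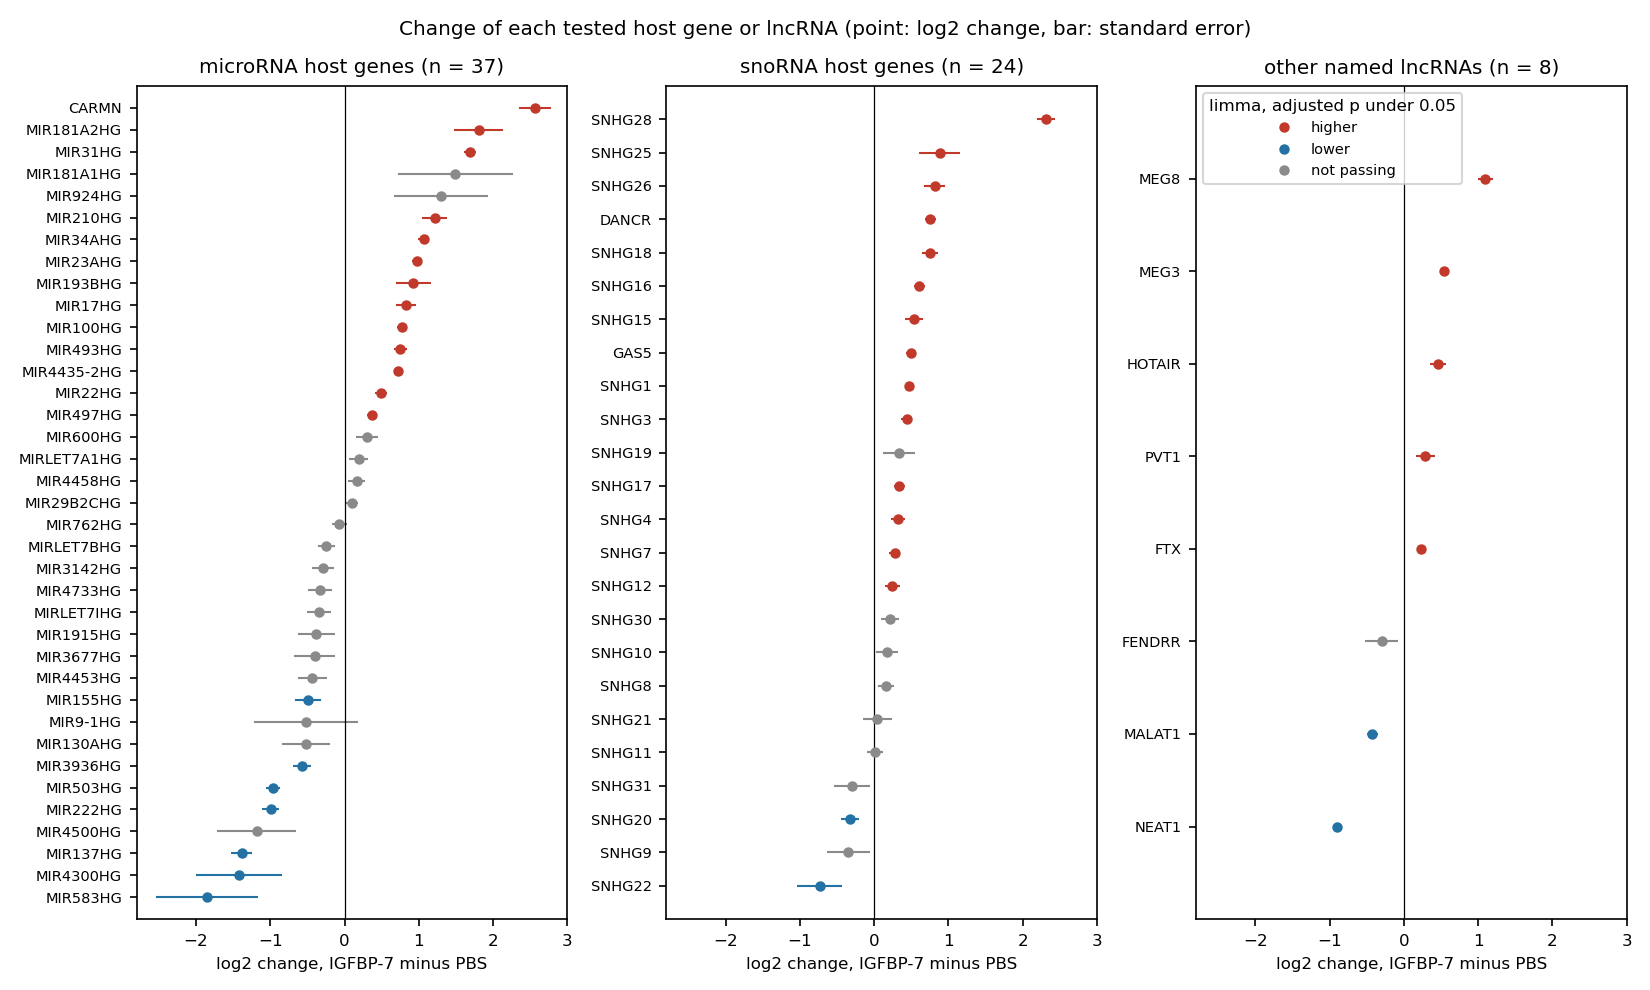
Log2 change (IGFBP-7 minus PBS, x axis) with its standard error for the 69 tested members, in 3 panels for 37 microRNA host genes, 24 snoRNA host genes and 8 other named lncRNAs. Red points passed the limma threshold as higher, blue points as lower and grey points did not pass. The snoRNA host genes lie mostly between 0 and 1, while the microRNA host genes run from -1.85 to 2.57.

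Among the microRNA host genes CARMN had the largest difference. CARMN is the smooth muscle and cardiac transcript that carries the miR-143 and miR-145 hairpins, a pair known from smooth muscle and contractile cells. Its normalized count was 33.0, 37.3 and 38.5 in the PBS libraries and 212.6, 231.2 and 213.9 in the IGFBP-7 libraries. All 3 IGFBP-7 libraries were far above the PBS libraries and close to each other. The log2 change was 2.57 ± 0.22 (SE, n = 3 per group), 5.92-fold, with a limma adjusted p of 1.09e-14.

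MIR31HG, the host of miR-31 next to the interferon gene cluster, stood at 497, 490 and 542 with PBS and at 1738, 1554 and 1645 with IGFBP-7. The groups were wide apart. The log2 change was 1.69 ± 0.08, 3.22-fold, with a limma adjusted p of 1.38e-23. MIR181A2HG, a host of miR-181a, was low, at 24.7, 32.4 and 13.9 with PBS and 82.8, 95.7 and 66.1 with IGFBP-7. The groups did not overlap, and the log2 change was 1.80 ± 0.33 (limma adjusted p = 4.96e-06). MIR181A1HG, the host of the other copy of this microRNA, was at 9.27, 13.8 and 0 with PBS and 9.20, 17.8 and 16.5 with IGFBP-7. Its groups overlapped and it did not pass (limma adjusted p = 0.0924).

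MIR210HG, whose microRNA is known as a hypoxia-induced one, gave 116, 97.2 and 114 normalized counts with PBS and 238, 280 and 246 with IGFBP-7. Its groups were clearly apart. The log2 change was 1.21 ± 0.17 (limma adjusted p = 1.48e-08). MIR34AHG carries miR-34a, a textbook target of p53, and gave 944, 847 and 875 with PBS and 1929, 1851 and 1803 with IGFBP-7. Again no library of one group reached the other. The log2 change was 1.07 ± 0.08 (limma adjusted p = 1.15e-17). An antisense transcript, LNCTAM34A, shares exonic sequence with MIR34AHG on the opposite strand. It had a log2 change of 0.52 ± 0.37 and did not pass.

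Of the hosts with more than 1 microRNA, MIR17HG, MIR23AHG, MIR100HG and MIR193BHG were among the higher ones, while MIR222HG and MIR137HG were lower and others, such as MIRLET7BHG and MIR29B2CHG, did not pass. MIR17HG, the host of the miR-17 to miR-92a cluster and a known MYC target, went from 202, 208 and 195 with PBS to 338, 334.5 and 403 with IGFBP-7. Its IGFBP-7 libraries were all above, replicate 3 highest, and the log2 change was 0.82 ± 0.14 (limma adjusted p = 8.16e-07). MIR100HG, the host of miR-100, let-7a-2 and miR-125b-1, gave 1825, 2058 and 1866 against 3271, 3374 and 3172. Its groups were narrow and apart, with a log2 change of 0.77 ± 0.06 (limma adjusted p = 2.25e-15). MIR23AHG, the host of miR-23a, miR-27a and miR-24-2, had a log2 change of 0.98, and MIR193BHG, the host of miR-193b and miR-365a, one of 0.92.

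MIR22HG, the host of miR-22, gave 907, 897 and 907 with PBS and 1225, 1224 and 1362 with IGFBP-7. The PBS libraries were nearly equal and the IGFBP-7 libraries all higher, with a log2 change of 0.49 ± 0.08 (limma adjusted p = 5.98e-07). MIR497HG, the host of miR-497 and miR-195, had a log2 change of 0.36, and MIR4435-2HG one of 0.72. MIR4435-2HG has a near-identical copy, CYTOR, between which reads can be divided. CYTOR had a log2 change of 0.94 ± 0.05, so the values of the pair cannot be told apart with certainty.

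The let-7 seed, GAGGUAG, occurs in 5 tested hosts, of which MIR100HG was higher, while MIRLET7A1HG, MIRLET7BHG, MIRLET7IHG and MIR4500HG did not pass. Their log2 changes were 0.19, -0.25, -0.35 and -1.19 in that order. In MIRLET7BHG, MIRLET7IHG and MIR4500HG every IGFBP-7 library was below every PBS library. MIRLET7BHG was called lower in 5 of 15 alternatives, MIRLET7IHG in 4 of 15 and MIR4500HG in 3 of 14. Hosts of 1 family thus had values on both sides of 0.

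Of the 7 lower microRNA hosts, 3 fell by at least 1 on the log2 scale. MIR137HG, the host of miR-137, gave 389, 393 and 448 with PBS and 135, 172 and 164 with IGFBP-7. The groups were well apart, and the log2 change was -1.38 ± 0.14 (limma adjusted p = 3.73e-12). It shares exonic sequence on the same strand with DPYD, which had a log2 change of -0.75 ± 0.07, so part of its reads could belong to either gene. MIR583HG gave 20.6, 18.7 and 14.95 with PBS and 1.02, 7.62 and 7.23 with IGFBP-7. Its values lie near the level of a few fragments, and the log2 change was -1.85 ± 0.68 (limma adjusted p = 0.0167). MIR4300HG gave 18.5, 20.6 and 32.0 against 2.04, 13.5 and 15.5. IGFBP-7 replicate 1 was the lowest in both, and the log2 change of MIR4300HG was -1.42 ± 0.58 (limma adjusted p = 0.0321). MIR583HG lost its call without IGFBP-7 replicate 1, PBS replicate 1 or PBS replicate 2 (log2 change -1.83 to -1.17, limma adjusted p = 0.0542 to 0.105). MIR4300HG lost it without IGFBP-7 replicate 1, PBS replicate 2 or PBS replicate 3 (log2 change -1.50 to -0.64, limma adjusted p = 0.0572 to 0.297).

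The other lower hosts changed by under 1 on the log2 scale. MIR222HG, the host of miR-221 and miR-222, microRNAs known for targeting cell-cycle inhibitors, gave 617, 756 and 726 with PBS and 314, 372 and 364 with IGFBP-7, a log2 change of -0.997 ± 0.11 (limma adjusted p = 2.97e-11). MIR503HG, the host of miR-503, gave 958, 1067 and 880 against 462, 486 and 535, a log2 change of -0.97 ± 0.10 (limma adjusted p = 1.44e-12). In both the groups were far apart. MIR3936HG had a log2 change of -0.57 and overlaps exons of SLC22A4 and SLC22A5 on the opposite strand, which had log2 changes of -0.52 and -0.55. MIR155HG, the host of miR-155, a microRNA known from immune activation, gave 194, 155 and 194 with PBS and 113, 139 and 133 with IGFBP-7. Its groups did not overlap but came close, and the log2 change was -0.49 ± 0.18 (limma adjusted p = 0.0143), a call lost without IGFBP-7 replicate 1, PBS replicate 1 or PBS replicate 3 (limma adjusted p = 0.0581 to 0.0678).

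**Figure D2:**
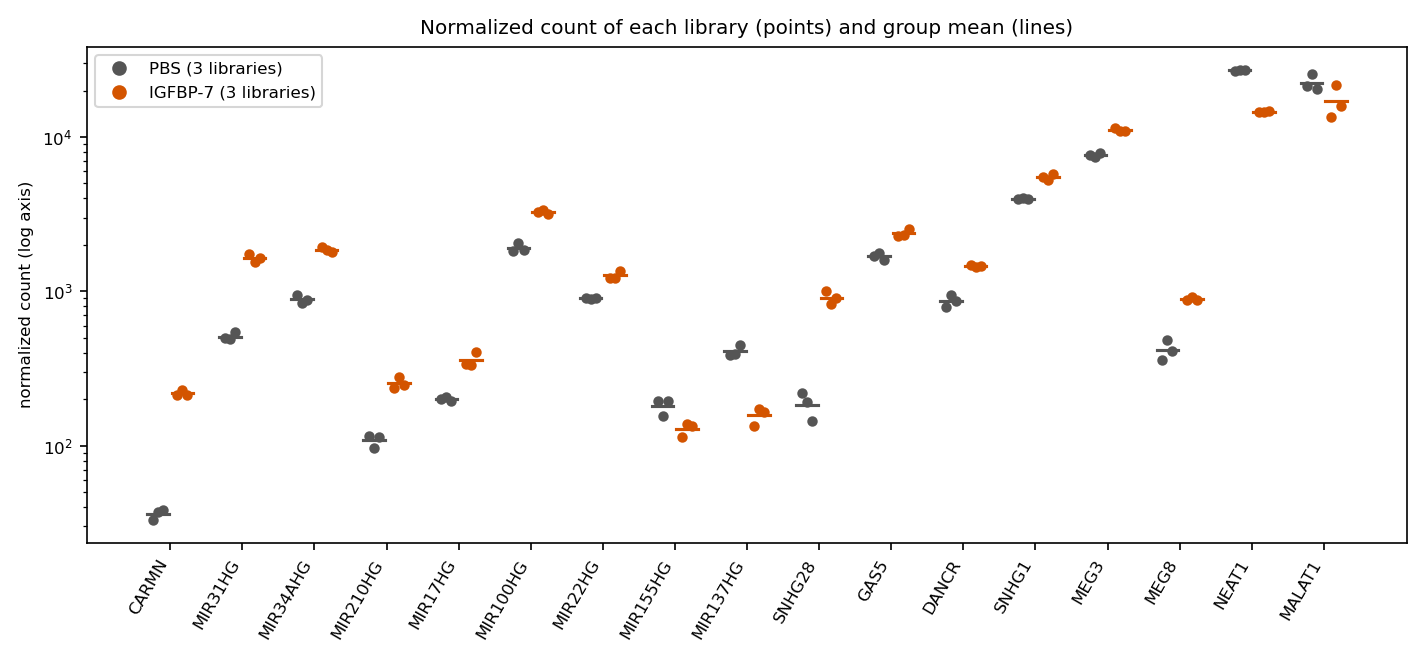
Normalized count (log y axis) in each of the 3 PBS and 3 IGFBP-7 libraries for 17 members, with lines at the group means. CARMN, MIR31HG and SNHG28 show the widest upward gaps, NEAT1 and MIR137HG lie lower with IGFBP-7, and MALAT1 is the only one of these 17 whose groups overlap.

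Most snoRNA host genes that passed were higher, the median change being small. SNHG1, which carries 8 box C/D snoRNAs, gave 3954, 4039 and 3965 normalized counts with PBS and 5528, 5304 and 5757 with IGFBP-7. The groups were narrow and apart, and the log2 change was 0.47 ± 0.05 (limma adjusted p = 7.86e-11). GAS5, known for accumulating in growth-arrested cells and carrying 10 box C/D snoRNAs and 1 box H/ACA snoRNA, gave 1688, 1772 and 1603 against 2290, 2314 and 2529. It was higher in all 3 IGFBP-7 libraries, with a log2 change of 0.49 ± 0.07 (limma adjusted p = 9.75e-09). GAS5-AS1, which overlaps its exons on the opposite strand, had a log2 change of 0.36 ± 0.20 and did not pass.

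DANCR, the host of SNORA26, gave 787, 947 and 867 with PBS and 1474, 1443 and 1469 with IGFBP-7. The IGFBP-7 libraries were tightly grouped above, with a log2 change of 0.76 ± 0.08 (limma adjusted p = 1.07e-11). Of the other hosts that were higher and carry a matched snoRNA, SNHG25 had a log2 change of 0.88, SNHG26 of 0.81, SNHG18 of 0.75, SNHG16 of 0.61, SNHG15 of 0.53, SNHG3 of 0.44, SNHG17 of 0.33, SNHG4 of 0.32, SNHG7 of 0.27 and SNHG12 of 0.25. SNHG4, SNHG7 and SNHG12 no longer passed under scaling to the library total. The SNHG12 call was also lost without each of 4 single libraries, namely IGFBP-7 replicates 1 and 3 and PBS replicates 2 and 3 (limma adjusted p = 0.0526 to 0.125).

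The hosts were also sorted by the snoRNAs RefSeq places inside them, with no test between the classes. Of 7 box C/D hosts 5 were higher, with a median log2 change of 0.61, of 10 box H/ACA hosts 6 were higher, with a median of 0.30, and both hosts of the 2 classes together, GAS5 and SNHG12, were higher. None of these 19 was lower. Of the 5 SNHG genes with no snoRNA matched in the table used, SNHG28 was higher, SNHG20 and SNHG22 were lower, and SNHG10 and SNHG21 did not pass.

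SNHG28 was the farthest from 0. Its normalized count was 218, 191 and 145 with PBS and 999.8, 826 and 905 with IGFBP-7. All IGFBP-7 libraries were several-fold above, with a log2 change of 2.31 ± 0.12, 4.96-fold (limma adjusted p = 2.82e-22). Its exons overlap those of SLAMF8 on the opposite strand and of VSIG8 on the same strand. SLAMF8, a receptor of the SLAM family, had a log2 change of 2.34 ± 0.10 and VSIG8 one of 2.71 ± 0.59, so the reads of these genes cannot be told apart with certainty without the strand setting of the counting. SNHG20, at a log2 change of -0.32, shares exonic sequence with SEC14L1 on the same strand, which had one of -0.50 ± 0.05. SNHG22, at -0.73, overlaps MYO5B, which had a log2 change of -1.26 ± 0.19. The SNHG20 call was lost without IGFBP-7 replicate 2, PBS replicate 2 or PBS replicate 3 (limma adjusted p = 0.0519 to 0.0565), and the SNHG22 call without IGFBP-7 replicate 1, PBS replicate 1 or PBS replicate 3 (limma adjusted p = 0.0607 to 0.227).

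Genes that host snoRNAs inside protein-coding transcripts, and genes of the snoRNA-protein particles (snoRNPs), were also mostly higher. Lists of related genes were described by counts and medians only, beside the 31.3% higher and 29.2% lower over all tested genes. Of 45 listed protein-coding snoRNA host genes 19 were in the table, and all 19 were higher, with a median log2 change of 0.33. PPAN, a ribosome assembly factor, led at 0.67, followed by DKC1, the pseudouridine synthase of box H/ACA particles, at 0.57. Of 18 listed snoRNP protein and assembly genes 12 were in the table, of which 11 were higher and 0 lower, with a median of 0.32. DKC1 led here too, followed by NOLC1, a snoRNP chaperone, at 0.45. DKC1 and NOP56 stand in both lists. Under scaling to the library total, 15 of the 19 and 8 of the 12 passed as higher. Of 17 listed genes of nonsense-mediated decay 5 were in the table: 4 were higher, led by MAGOHB at 0.46 and SMG6 at 0.36, and UPF3B was lower at -0.23.

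Protein-coding microRNA host genes went both ways. Of 31 listed protein-coding microRNA host genes 21 were in the table, 8 higher and 11 lower, with a median of -0.22. SLIT3, a guidance ligand and host of miR-218-2, had a log2 change of 1.53 and PPARGC1B, a coactivator of mitochondrial genes and host of miR-378a, one of 1.03. SLIT2, a guidance ligand and host of miR-218-1, had one of -1.75, and MEST, an imprinted gene and host of miR-335, one of -1.37. The hosts of the miR-218 copies thus went opposite ways, with SLIT3 at a mean of 10.7 with PBS and 33.3 with IGFBP-7. Of 21 listed genes of microRNA processing and silencing 7 were in the table. TUT7 (0.47), AGO3 (0.38) and RAN (0.28) were higher, ZSWIM8 (-0.23), which acts in target-directed microRNA decay, was lower, and 3 did not pass.

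**Figure D3:**
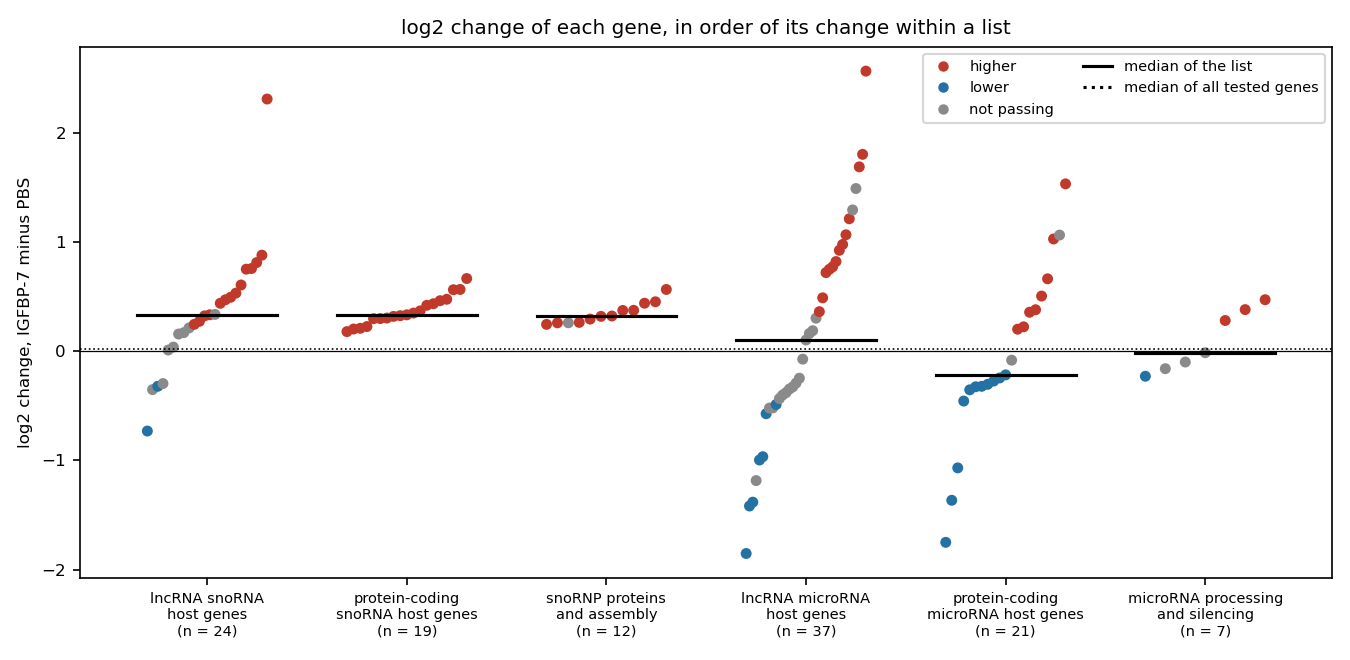
Log2 change (y axis, IGFBP-7 minus PBS) of each tested gene in 6 lists on the x axis, with a bar at the median of each list and a dotted line at the median of all tested genes. The 3 snoRNA-related lists have medians of 0.32 to 0.33 and few points under 0, while both lists of microRNA hosts spread widely on both sides.

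Sequence at the start of the snoRNA host genes was examined because hosts and ribosomal protein genes are known to begin with a run of pyrimidines. A run of at least 5 pyrimidines opening with C within 5 bases of the RefSeq start was found in 10 of 21 tested snoRNA host genes with a promoter sequence (47.6%). It was found in 9 of 18 protein-coding snoRNA host genes and in 13 of 33 tested microRNA host genes (39.4%). The run was thus not particular to snoRNA hosts among the members. It was in 43.1% of all tested members with a sequence and in 21.1% of the 27305 RefSeq promoters. Of the hosts that were higher, 4 are shown, from 20 bases before to 20 bases after the start, with the run in capitals. They lie in GRCh38.p14 at chr5:139274081-139274120 (SNHG4, plus), chr1:28581854-28581893 (SNHG12, minus), chr20:38435309-38435348 (SNHG17, minus) and chr4:52712374-52712413 (DANCR, plus).
SNHG4: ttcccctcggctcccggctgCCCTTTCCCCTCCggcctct
SNHG12: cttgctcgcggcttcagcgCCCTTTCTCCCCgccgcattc
SNHG17: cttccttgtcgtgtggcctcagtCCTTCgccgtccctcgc
DANCR: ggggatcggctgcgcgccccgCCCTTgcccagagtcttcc
In SNHG4 the run opens at the start itself and in SNHG12 at the base before it. GAS5 and SNHG1 had no such run in their windows at the RefSeq start, which says only that the letters are not there.

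Short motifs in the 300 bases around the starts, on both strands, occurred in the members at shares near those of all promoters. Of 58 tested members with a sequence, TGANTCA (AP-1) was in 5.17% against 7.76% of all RefSeq promoters, CAGACA (SMAD) in 13.8% against 16.8%, GGAATG (TEAD) in 15.5% against 14.0% and ACGTG (hypoxia-inducible factor) in 24.1% against 21.6%. These are letter matches and say nothing of binding.

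NEAT1 had the lowest adjusted p of the lower members. It gave 26793, 27016 and 27363 normalized counts with PBS and 14514, 14464 and 14630 with IGFBP-7. Both groups were very narrow and lay far apart. The log2 change was -0.90 ± 0.04, 1.86-fold lower (limma adjusted p = 3.02e-25). The neighbouring MALAT1 gave 21450, 25554 and 20480 with PBS and 13543, 21632 and 15865 with IGFBP-7, so IGFBP-7 replicate 2 lay inside the PBS range. Its log2 change was -0.42 ± 0.08 (limma adjusted p = 3.30e-06), and DESeq2 on the recovered reads did not call it (adjusted p = 0.0825). Together the 2 transcripts took 0.221 to 0.246% of the normalized counts with PBS and 0.116 to 0.154% with IGFBP-7. These gene-level counts from poly(A) RNA do not separate the forms of a transcript. Forms without a poly(A) tail, paraspeckles and nuclear speckles were not measured. None of 12 paraspeckle protein genes listed was analysed here, and of 14 nuclear speckle protein genes SRSF2 (0.26) and SRSF3 (0.23) were in the table and higher.

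The maternally expressed genes around MEG3 were higher together. MEG3, a growth-restraining lncRNA in the textbook view, gave 7628, 7376 and 7879 with PBS and 11420, 10880 and 10936 with IGFBP-7. The groups were apart, and the log2 change was 0.54 ± 0.05 (limma adjusted p = 2.38e-14). MEG8, in whose span RefSeq places 41 box C/D snoRNAs, gave 358, 484 and 411 against 875, 916 and 875. All IGFBP-7 libraries were again above, with a log2 change of 1.10 ± 0.10 (limma adjusted p = 2.12e-13). MIR493HG, which lies between them and shares exonic sequence with both, gave 599, 666 and 582 against 1016, 998 and 1091, a log2 change of 0.75 ± 0.09. MEG9, farther along the same strand, had a log2 change of 0.70 ± 0.13 (limma adjusted p = 8.21e-06). RTL1, the paternally expressed gene on the opposite strand, was low, at a mean of 16.4 with PBS and 34.1 with IGFBP-7, a log2 change of 1.06 ± 0.42 (limma adjusted p = 0.0268). DLK1, the other paternally expressed gene of the locus, was at 0 in 5 of 6 libraries and was not tested, and BEGAIN did not pass.

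**Figure D4:**
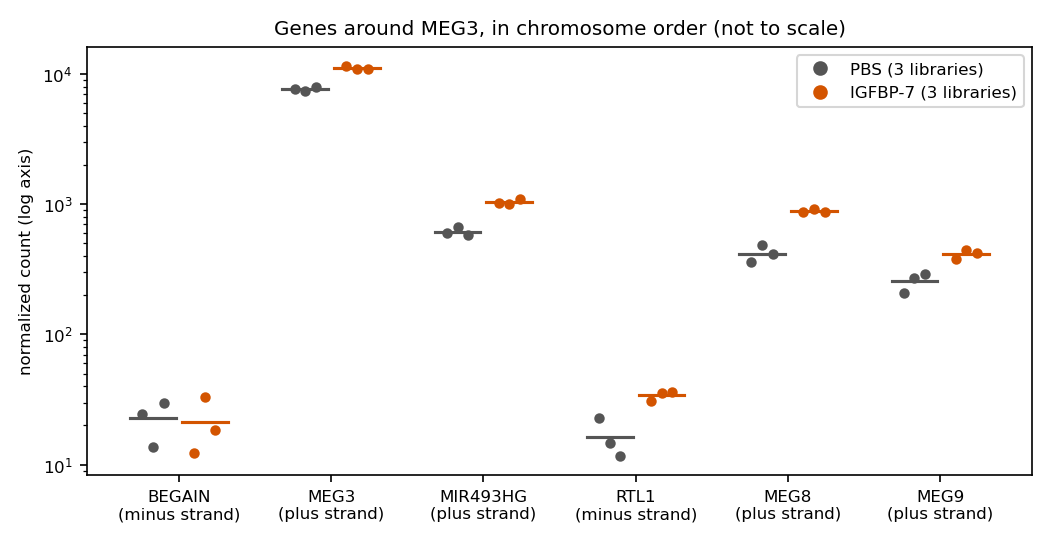
Normalized count (log y axis) in each PBS and IGFBP-7 library for 6 tested genes around MEG3, in chromosome order with their strand, and lines at the group means. MEG3, MIR493HG, RTL1, MEG8 and MEG9 have every IGFBP-7 library above every PBS library, while the groups of BEGAIN overlap.

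A further 3 lncRNAs were higher by small amounts. HOTAIR, the antisense transcript of the HOXC cluster, had a log2 change of 0.46 ± 0.11, and its overlapping neighbour HOXC11 one of 0.43 ± 0.14. FTX, a regulator of XIST that carries miR-374 and miR-421 hairpins, had one of 0.23 ± 0.06 and lost its call under scaling to the library total. PVT1 gave 392.3, 379 and 385 with PBS and 523, 557 and 360 with IGFBP-7, so IGFBP-7 replicate 3 was below all PBS libraries. Its log2 change was 0.29 ± 0.12 (limma adjusted p = 0.0382), a call lost in 8 of 15 alternatives, among them leaving out PBS replicate 1, 2 or 3 or IGFBP-7 replicate 1 or 2 (log2 change 0.17 to 0.30, limma adjusted p = 0.054 to 0.289). FENDRR had -0.30 ± 0.23 and did not pass. H19, a fetal liver lncRNA, was listed at 0 in 4 of 6 libraries and at 3.93 and 2.04 in the others, which is at the level of a few fragments.

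Position on the chromosome was not used to choose the members. For each tested member the nearest tested protein-coding gene in GENCODE release 29 was set beside it. Of the 32 higher members 22 had a neighbour that was higher, 4 one that was lower and 6 one that did not pass. Of the 11 lower members 7 had a lower neighbour and 4 one that did not pass. Of the 26 that did not pass, 6 neighbours were higher, 6 lower and 14 did not pass. Over all tested genes 31.3% were higher and 29.2% lower. Whether members and neighbours change together was not tested. The nearest gene could be distant, at 1872263 bases for MIR17HG with GPC6 and 803510 bases for MIR222HG with CHST7. Near CARMN lies IL17B, a cytokine gene, which rose from 5.42 ± 3.08 to 31.4 ± 3.77 (SD), a log2 change of 2.46 ± 0.57. IFNE, the epsilon interferon, overlaps the span of MIR31HG on the same strand and had a log2 change of 1.48 ± 0.20. MYC, next to PVT1, had one of 1.25 ± 0.06. DANCR lies near USP46 (0.97 ± 0.06) and SNHG18 beside SEMA5A (0.78 ± 0.07). Pairs that went opposite ways were MIR181A2HG with NR6A1 (-1.19 ± 0.17), MIR210HG with RASSF7 (-0.35 ± 0.08), SNHG16 with ST6GALNAC2 (-1.15 ± 0.49) and MIR4435-2HG with BCL2L11 (-0.26 ± 0.08). Members can share a neighbour, as MEG3, MEG8 and MIR493HG share RTL1. Of the 69 tested members 25 overlap exons of another gene of the table, 16 of them called. How reads in the overlaps were assigned is not known, since the counting settings are not given. Among these pairs are MIR23AHG with ZSWIM4 (0.51 ± 0.08), MIR100HG with BLID (1.84 ± 0.69), MIR497HG with C17orf49 (0.29 ± 0.06) and SNHG3 with RCC1 (0.26 ± 0.05), each with the log2 change of the overlapping gene.

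**Figure D5:**
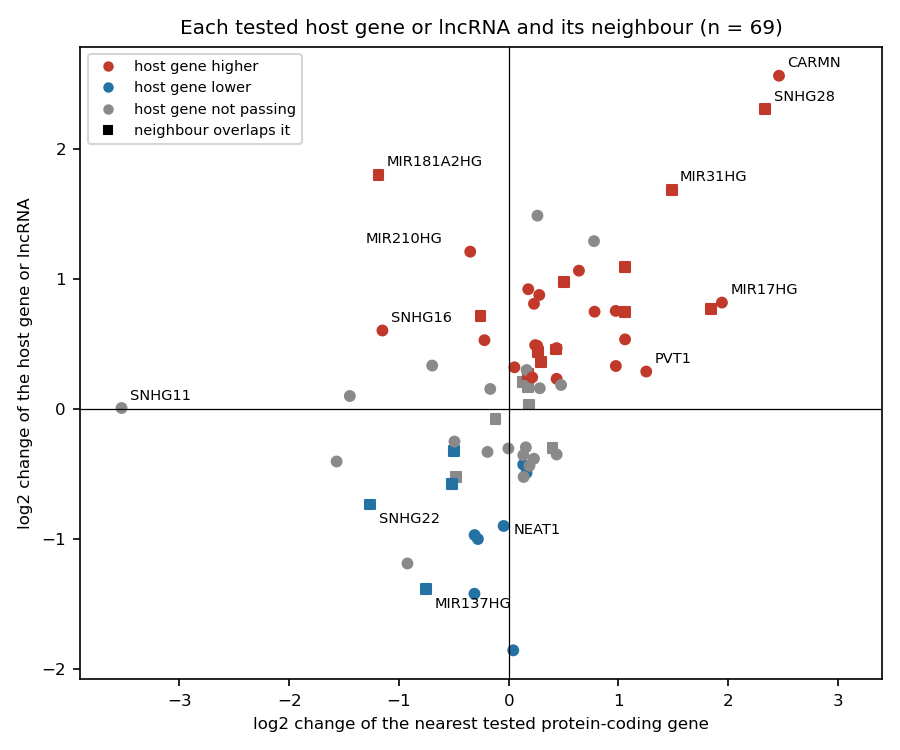
Log2 change of each of the 69 tested members (y axis) against that of its nearest tested protein-coding gene (x axis). Colours give the limma call of the member, and squares mark neighbours that overlap it. CARMN, SNHG28 and MIR31HG lie at the upper right with their neighbours, and MIR181A2HG lies at the upper left.

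The 33 members below the minimum of 10 had means of 0.170 to 9.53 normalized counts and were not tested. They were 30 microRNA host genes, SNHG27, EPB41L4A-DT and H19. Among them were hosts known from other tissues: MIR122HG of hepatocytes (mean 1.46), MIR1-1HG (0.344) and MIR133A1HG (9.53) of muscle, MIR142HG of blood cells (0.341), and MIR194-2HG (7.41) of gut and liver epithelium. At most 3 fragments over all 6 libraries were counted for 9 of the 33, a depth at which no difference could be seen. Among the tested members that did not pass, MIR29B2CHG, host of miR-29b-2 and miR-29c, which target collagens, had a log2 change of 0.10 ± 0.08 with overlapping groups.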

How the data were processed

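LX-2 cells given PBS or IGFBP-7 (3 libraries each, grouped by the treatment label) were profiled by poly(A) RNA sequencing. Per the file headers the deposited table holds normalized counts, a signal that the authors left on a linear scale. Per the submitters' processing notes the tools were DESeq2, featureCounts, Subread and STAR, with no versions. The build, the annotation and the strandedness used in counting: not given in the sources used here. Values within a library were whole multiples of a single step, from which reads were recovered (100% whole within 0.01 of a step). Sample columns left unused numbered 0. Replicates differed beyond sampling noise (chi-square per degree of freedom 5.10 to 6.93), and all 6 libraries were counted.

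All 11872 genes with a mean of at least 10 were fitted with limma-trend 3.58.1 (R 4.3.3) after taking log2(normalized count + 1), as the IGFBP-7 minus PBS difference, two-sided, without covariates, with Benjamini-Hochberg adjustment over these genes and a threshold of 0.05. The pseudocount of 1 understates changes of low genes. The script was tested on simulated data. Values after ± beside a log2 change are standard errors of the limma fit, from the spread between libraries. Floors cover counting error only. edgeR 4.0.16 and DESeq2 1.42.0 were run on recovered reads, and 15 alternatives in all. Members and lists were chosen with earlier results of these data known. Lists were microRNA processing and silencing, snoRNP proteins and assembly, nonsense-mediated decay, paraspeckle and nuclear speckle proteins, and protein-coding snoRNA and microRNA hosts. All members were accounted for, with every library's value for those called with an absolute log2 change of at least 1 and for MALAT1, NEAT1, H19, MEG3, GAS5, CARMN, DANCR, SNHG1, MIR17HG, MIR22HG, MIR31HG, MIR100HG and MIR155HG, and the 2 largest changes in each direction from each list. Values in every library of MIR222HG, MIR503HG, MIR493HG, MIR181A1HG and PVT1 were added after they were seen, as were CYTOR and the named neighbours. Sequences came from RefSeq tables (GRCh38.p14), in which 100 of 102 members matched, and gene order and overlaps from GENCODE release 29.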

Additional observations from a re-analysis of the deposited data

How the results depend on the processing

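Of 15 alternatives (pseudocount, filter, scaling, edgeR, DESeq2, replicate block, and leaving out each library), none reversed a called member, and 27 of the 32 higher and 5 of the 11 lower members kept their call in all that tested them. Scaling to the library total gave 17 lower members in place of 11, 13 lower microRNA hosts in place of 7 and 3 higher other lncRNAs in place of 5, and it turned the median log2 change of the microRNA hosts from 0.10 to -0.0387. DESeq2 called 1 other lncRNA lower in place of 2, leaving MALAT1 out. With edgeR and with DESeq2 9 microRNA hosts were lower in place of 7. MIR4453HG, which did not pass in the main fit, was called lower in 8 of 15 alternatives. Of the 2 lower snoRNA hosts 1 remained with no filter, a filter at a mean of 100, quantile normalization, edgeR and DESeq2. Leaving out single libraries gave 0 to 2 lower snoRNA hosts, 31 to 32 higher members and 8 to 13 lower members. Calls lost without 1 library were among MIR155HG, MIR4300HG, MIR583HG, PVT1, SNHG12, SNHG20 and SNHG22. Apart from the scaling, the filters and the left-out libraries, which change what enters the fit, the cause was not tested. Replicates with the same number did not deviate together (correlations -0.05, 0.01 and -0.05), and with the replicate block 32 members were higher and 12 lower, MIR4453HG being the addition. The 1 lower gene of microRNA processing became 3 under scaling to the library total and 2 with quantile normalization, edgeR, DESeq2, without IGFBP-7 replicate 2 and without PBS replicate 2. That scaling and quantile normalization each gave 1 higher nuclear speckle gene in place of 2. The 33 members under a mean of 10 were too low to be tested.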
